A study of Mus musculus with 6 samples.

Results

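Of 10 transcription factors that determine the lens, namely Pax6, Six3, Meis1, Sox2, Pitx3, Foxe3, Gata3, Prox1, Sox1 and Hsf4, 8 were found by their symbol among the 13931 genes measured by RNA-sequencing in newborn mouse lenses, and they are described here across Control and Celf1cKO lenses. Sox1 and Sox2 were not found by symbol and were not analysed here. Celf1cKO lenses are deficient in the RNA-binding protein Celf1, which controls the splicing, decay and translation of transcripts. The comparison asks whether transcripts of the regulators that build the lens are altered when Celf1 is deficient.

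There were 3 Control and 3 Celf1cKO libraries from postnatal day 0 (P0), and each library pooled 2 whole lenses of mice on a mixed C57BL/6J and FVB background. Celf1cKO mice carried a germline null allele (Celf1lacZKI), a floxed allele whose exon 5 is removed by Cre, and the Pax6GFPCre transgene, in which Pax6 regulatory sequence drives Cre from the lens placode onward. Celf1lacZKI/+ is the genotype that the labels state for Control lenses, so that both groups would share the null allele, whereas the general methods of the study name Celf1flox mice without Cre as controls. The control genotype is therefore unsettled for every comparison below, and neither source gives the controls the Cre transgene. Because the lens surface, the fiber cells and any tissue left on the lens were sequenced together, fewer cells of a type and less RNA per cell cannot be told apart.

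The lens forms when head ectoderm that expresses Pax6 thickens over the optic vesicle, under the joint action of Pax6, Six3, Meis and SoxB1 proteins. The resulting vesicle keeps a front layer of dividing epithelial cells, which depends on Foxe3 and Pitx3, while the cells at the back leave the cell cycle and elongate into fiber cells under Prox1, Gata3, Sox1 and Hsf4. Fiber cells then fill with crystallins, the proteins that make the lens transparent, and later degrade their nuclei and organelles.

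Foxe3 was the one factor of the 8 that was called altered in Celf1cKO lenses, at a level 4.04-fold lower than in Control lenses. Its promoter, the 250 bases before and 50 bases after the RefSeq start site, lies at chr4:114926018-114926317 on the minus strand (GRCm38.p6). The Meis1 promoter lies at chr11:19018920-19019219, also on the minus strand. It is shown as an example of a factor whose groups did not overlap and whose promoter holds a match to a motif searched. Pax6 also met this description and is not printed. Capitals mark the Meis1 match, which is ACAATG, the core bound by Sox proteins, read on the opposite strand upstream of the start site. The Foxe3 and Meis1 promoters are printed 5′ to 3′ on the strand of the gene.
Foxe3 promoter: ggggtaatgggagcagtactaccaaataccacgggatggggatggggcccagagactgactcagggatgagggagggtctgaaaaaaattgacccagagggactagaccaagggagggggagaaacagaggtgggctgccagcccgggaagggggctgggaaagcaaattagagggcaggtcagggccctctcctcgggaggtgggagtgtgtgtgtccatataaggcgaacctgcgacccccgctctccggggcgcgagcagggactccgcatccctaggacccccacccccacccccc
Meis1 promoter: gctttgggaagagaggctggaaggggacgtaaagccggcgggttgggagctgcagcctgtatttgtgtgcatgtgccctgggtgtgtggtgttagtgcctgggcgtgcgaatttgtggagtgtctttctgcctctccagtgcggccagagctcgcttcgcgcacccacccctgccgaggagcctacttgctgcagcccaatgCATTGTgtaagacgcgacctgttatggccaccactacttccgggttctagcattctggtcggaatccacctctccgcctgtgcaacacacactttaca
RefSeq promoters were matched for 9 of the 10 listed factors. For 7 motifs of the factors' own protein families, GAANNTTC (heat shock factor), TGACAG (Meis), AGATAA (the zinc fingers of GATA proteins), TAAACA (forkhead proteins), TAATCC (Pitx), TTCACGC (Pax6 paired domain) and ACAATG (Sox), both strands were searched. None of the 7 was present in the Foxe3, Pitx3, Gata3 or Sox1 window. TGACAG was present in the Six3 window, in the Sox2 window and in 1 of the 2 Pax6 windows, against 16.8% of 13877 promoters. TAAACA was present in 1 of the 2 Prox1 windows, against 8.81% of promoters, and the Sox core of Meis1 was present in 7.41% of them. A match is a description of the letters and not a site of binding.

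CELF1 is known for binding GU-rich sequence in the 3′ untranslated regions (3′ UTRs) of transcripts. The 3′ UTR of 1 annotated transcript per factor was therefore searched on the sense strand for TGTTTGT and TGTGTGT, counting overlapping matches. Meis1 held 3 matches, Gata3 held 2 and Prox1 held 5, or 2.48, 1.55 and 0.964 per kb. A window of 30 bases around a match is shown for each of these 3 factors because Celf1 is the targeted gene. Matches are in capitals (GENCODE M21, GRCm38).
Meis1 3′ UTR: ttttccacactaTGTGTGTtgtttccatag
Gata3 3′ UTR: ccctgtaattgtTGTTTGTatgtataattc
Prox1 3′ UTR: cctgtattattTGTGTGTGTgcactcaagg
Neither motif was present in the 3′ UTR of Pax6, Six3, Pitx3 or Hsf4, and the annotated Foxe3 model is a single exon of 867 bases with no 3′ UTR to search. Of 12948 genes with an annotated 3′ UTR, 43.1% held at least 1 of the 2 motifs.

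The reads assigned to the measured genes, which are fewer than all reads sequenced, summed to between 40694454 and 44387151 per library. Celf1 itself was at 9.95, 9.94 and 9.34 log2 CPM (CPM, the share of a library's reads scaled to a common total) in the Control libraries and at 8.93, 7.66 and 7.83 in the Celf1cKO libraries. This was a 3.03-fold lower level (log2 fold-change −1.60 ± 0.335 SE, n = 3 per group, limma adjusted p = 0.0269), which left Celf1cKO replicate 1 with the highest remaining Celf1 of its group. Leaving out any 1 library other than Celf1cKO replicate 1 gave limma adjusted p-values between 0.0560 and 0.108. A value for the whole gene does not show the deleted exon. Of the lens markers, Cryaa, Cryab, Crybb1, Cryga, Mip and Bfsp1 were at high levels in all 6 libraries. Crystallin transcripts took 45.8% to 46.9% of the reads assigned to measured genes in Control and 34.7% to 38.5% in Celf1cKO libraries. On the first principal component, which held 53.4% of the variance, Celf1cKO replicate 2 lay farthest from the Control libraries, and values without it are given for the results that it moved by more than 1.5 times in fold or whose order it set.

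A gene was called altered when its limma p-value, adjusted over all 13931 genes, was under 0.05, its log2 fold-change was beyond 0.58 in either direction and its mean over the 6 libraries was above 1 log2 CPM. Among the 8 factors, 1 was called, and it was lower in Celf1cKO lenses. Among the 10529 genes above 1 log2 CPM, 9.59% were called, and 3.38% were called lower. The adjusted p-value alone was under 0.05 with a lower level for 2 of the 8, Foxe3 and Hsf4, against 4.70% of these genes. Every Celf1cKO library lay below every Control library for 4 of the 8, Pax6, Meis1, Foxe3 and Hsf4, against 16.9% of genes. The median log2 fold-change of the 8 factors was −0.20, and that of all 10529 genes was 0.0060.

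**Figure D1:**
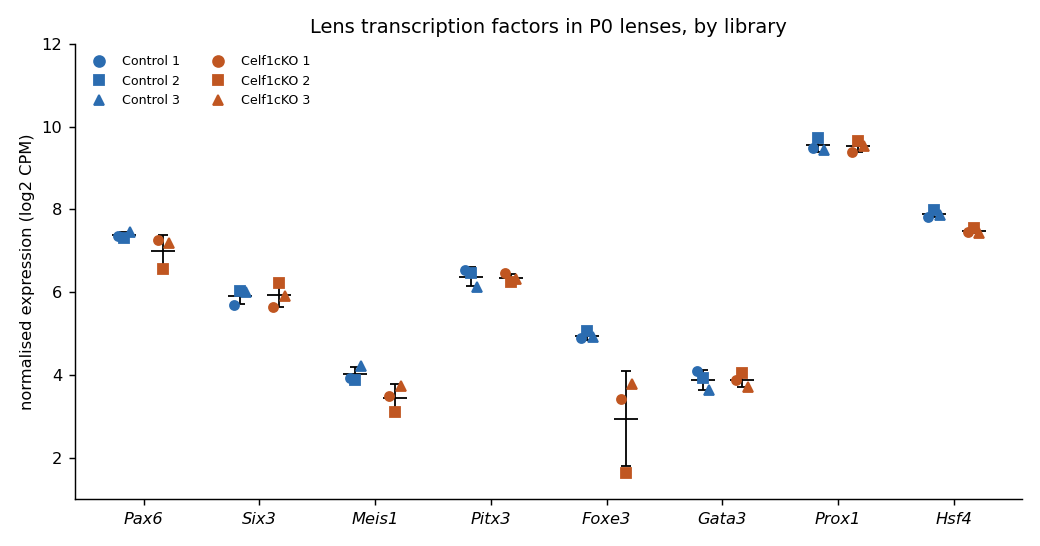
Normalised expression (log2 CPM, vertical axis) of the 8 factors (horizontal axis) in each of the 3 Control libraries (blue) and 3 Celf1cKO libraries (orange), with the symbol shape giving the replicate number and black lines the mean ± SD. Foxe3 shows the widest gap, with Control libraries between 4.88 and 5.06 and Celf1cKO libraries between 1.63 and 3.77, whereas the groups overlap for Six3, Pitx3, Gata3 and Prox1.

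The inducing factors came first in the order of lens formation. Pax6 (chromosome 2, 105668900 to 105697364, plus strand, GRCm38), the paired-domain and homeodomain factor without which no eye forms, was at 7.35, 7.30 and 7.46 log2 CPM in Control and at 7.26, 6.57 and 7.19 in Celf1cKO lenses. All 3 Celf1cKO values lay under the lowest Control value, but those of replicates 1 and 3 did so narrowly, and replicate 2 stood apart. The log2 fold-change of Pax6 was −0.37 ± 0.18 SE with a 95% confidence interval from −0.79 to 0.05 (limma adjusted p = 0.213), so a difference was not shown. Without Celf1cKO replicate 2 it was −0.15. The Cre transgene carries Pax6 upstream sequence, and its part in the Pax6 reads was not tested.

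Six3 (chromosome 17, 85613608 to 85629302, plus strand), a homeodomain factor that acts with Pax6 in the lens ectoderm and the optic vesicle, was at 5.68, 6.02 and 6.01 log2 CPM in Control and at 5.64, 6.22 and 5.91 in Celf1cKO lenses. Both the highest and the lowest value belonged to the Celf1cKO group. Its log2 fold-change of 0.02 had a 95% confidence interval from −0.37 to 0.40 (limma adjusted p = 0.955), and its sign turned with the scaling of the libraries.

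Meis1 (chromosome 11, 18879817 to 19018985, minus strand), a TALE homeodomain factor that acts upstream of Pax6 in the lens ectoderm, was the lowest of the 8 per length. It was at 3.92, 3.88 and 4.22 log2 CPM in Control and at 3.50, 3.10 and 3.74 in Celf1cKO lenses, which corresponds to 579, 546 and 733 reads against 483, 414 and 655. The groups did not overlap, and the lowest value was again that of Celf1cKO replicate 2. The log2 fold-change was −0.56 ± 0.19 SE with an interval from −1.01 to −0.12 (limma adjusted p = 0.0981). With the replicate number as a block the adjusted p was 0.0408, and the fold-change stayed just under the threshold of 0.58, so Meis1 was not called in either fit.

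Sox1 and Sox2, SoxB1 factors that bind DNA together with Pax6, were not analysed here, but the long noncoding transcripts Sox1ot and Sox2ot that span their positions were measured. Both genes sit inside the span of these transcripts on the same strand, with 0 exon bases shared in GENCODE M21. Sox1ot was at 7.63, 7.85 and 7.72 log2 CPM in Control and at 6.86, 6.96 and 6.71 in Celf1cKO lenses. These groups lay well apart, and Sox1ot was reduced 1.85-fold (log2 fold-change −0.89 ± 0.098 SE, limma adjusted p = 0.00888).

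Sox2ot was at 7.50, 7.74 and 7.04 log2 CPM in Control and at 6.95, 6.53 and 6.00 in Celf1cKO lenses. The groups were close at their edges, and within each replicate number the Celf1cKO value was lower. Its log2 fold-change of −0.93 ± 0.26 SE had a limma adjusted p of 0.0598, which became 0.0194 with the replicate block, so that Sox2ot was called in the blocked fit. The third SoxB1 gene, Sox3, was at −0.02, −0.27 and 0.19 log2 CPM in Control and at 0.73, 1.41 and 1.35 in Celf1cKO lenses, or 29 to 43 reads against 69 to 127. Sox3 was higher in every Celf1cKO library (log2 fold-change 1.20, limma adjusted p = 0.0418), but its mean was under 1 log2 CPM, so it was not eligible for a call.

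Antisense transcripts were also measured beside Six3, Pax6 and Prox1. Six3os1 was at 7.94, 7.87 and 7.91 log2 CPM in Control and at 7.41, 7.41 and 7.30 in Celf1cKO lenses, with a log2 fold-change of −0.54 ± 0.075 SE (limma adjusted p = 0.0109) that missed the fold threshold. The values of each group were tightly packed, while those of Six3 overlapped. Six3os1 shares 106 exon bases with Six3 on the opposite strand, and the strand setting of the read counting is not given in the sources used here, so reads of the shared stretch cannot be told apart. The log2 ratio of Six3os1 to Six3 was 2.01 ± 0.22 (SD, n = 3) in Control and 1.45 ± 0.29 in Celf1cKO lenses (two-sided exact permutation p = 0.1, the smallest that 3 against 3 libraries can give). This was 1 of 6 ratios computed, all chosen after the values were seen, and the ratio of Pax6os1 to Pax6 overlapped between the groups (change −0.34, exact permutation p = 0.4). Pax6os1 was at 2.38, 2.57 and 1.95 against 1.48, 1.57 and 1.73 log2 CPM (log2 fold-change −0.71, limma adjusted p = 0.0797) and shares no exon base with Pax6. Prox1os was at 7.16, 7.64 and 7.72 log2 CPM in Control and at 6.51, 6.14 and 6.16 in Celf1cKO lenses, and it was reduced (log2 fold-change −1.24 ± 0.17 SE, limma adjusted p = 0.0107). It shares 133 exon bases with Prox1 on the opposite strand, so the same limit on shared reads holds. Of these 5 noncoding transcripts, each lay lower in every Celf1cKO library, against 16.9% of genes. Among the 5, 2 were called lower, against 3.38% of genes.

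**Figure D2:**
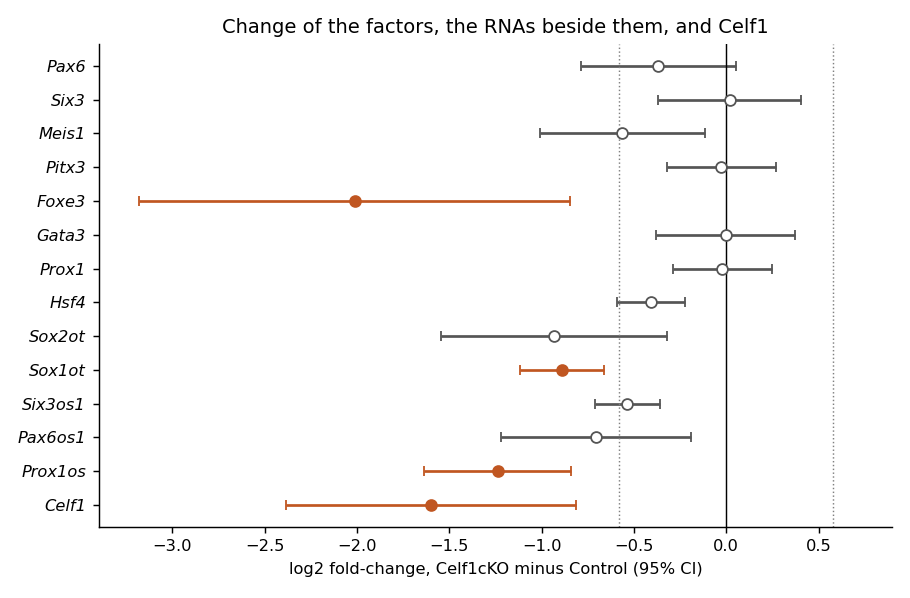
Log2 fold-change of Celf1cKO minus Control (horizontal axis) with its 95% confidence interval from limma for the 8 factors, the 5 noncoding transcripts beside factors, and Celf1, with filled orange symbols for called genes and dotted lines at the threshold of 0.58 in either direction. Foxe3, Sox1ot, Prox1os and Celf1 are called lower, and the intervals of Six3, Pitx3, Gata3 and Prox1 reach no farther than −0.38 and 0.40.

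The 2 factors of the lens epithelium differed from each other. Pitx3 (chromosome 19, 46135685 to 46148326, minus strand), a homeodomain factor whose loss arrests the lens vesicle, was at 6.54, 6.46 and 6.12 log2 CPM in Control and at 6.46, 6.25 and 6.33 in Celf1cKO lenses. The Celf1cKO values fell inside the Control range. Its log2 fold-change of −0.03 had an interval from −0.32 to 0.27 (limma adjusted p = 0.907).

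Foxe3 (chromosome 4, 114925147 to 114926013, minus strand, a single exon), the forkhead factor that keeps lens epithelial cells dividing and undifferentiated, was at 4.88, 5.06 and 4.91 log2 CPM in Control and at 3.41, 1.63 and 3.77 in Celf1cKO lenses. The reads behind these values were 1126, 1239 and 1183 against 456, 148 and 669. The Control libraries were nearly alike, all Celf1cKO libraries were clearly lower, and Celf1cKO replicate 2 was the lowest by a wide margin. The means were 4.95 ± 0.097 and 2.94 ± 1.15 log2 CPM (SD, n = 3 each), and the log2 fold-change was −2.01 ± 0.50 SE with an interval from −3.18 to −0.85 (limma adjusted p = 0.0434). The log2 ratio of Foxe3 to Pitx3 was −1.42 ± 0.23 in Control and −3.41 ± 1.08 in Celf1cKO lenses, without overlap (exact permutation p = 0.1).

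The size of the Foxe3 difference rested in part on Celf1cKO replicate 2, without which the log2 fold-change was −1.36 (limma adjusted p = 0.0219, called). The call was lost without any 1 of Control replicates 1, 2 and 3 or Celf1cKO replicate 3, with adjusted p-values of 0.106, 0.132, 0.114 and 0.0758 and log2 fold-changes between −2.43 and −1.96. Without Control replicate 2 or without Celf1cKO replicate 3 only 1 gene of the whole table was called, and it was a higher one, so that each call of a lower level described here was lost in those 2 settings. The 3 genes most like Foxe3 over the 6 libraries, by Pearson's r of log2 CPM among the 10529 genes, were Nipsnap1 (0.998), Plin3 (0.994) and Pde5a (0.989), a likeness that the distance of Celf1cKO replicate 2 from the other libraries enters.

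Other genes of the epithelium were measured beside Foxe3. Of 9 epithelium markers, 2 were called, in opposite directions. Pdgfra, the receptor for a growth factor of lens epithelial cells, was at 6.22, 6.74 and 6.46 log2 CPM in Control and at 5.88, 4.09 and 4.83 in Celf1cKO lenses (log2 fold-change −1.54 ± 0.40 SE, limma adjusted p = 0.0497). Ccnd2, a cyclin of the G1 phase, was at 7.51, 7.40 and 7.79 against 8.06, 8.32 and 8.39 (log2 fold-change 0.69 ± 0.13 SE, limma adjusted p = 0.0213). Pdgfra thus ran with Foxe3 in having its lowest value in Celf1cKO replicate 2, and Ccnd2 was elevated in all 3 Celf1cKO libraries.

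Cdh1, the epithelial cadherin, was at 6.80, 6.91 and 7.08 log2 CPM in Control and at 6.79, 4.27 and 5.70 in Celf1cKO lenses (log2 fold-change −1.34, limma adjusted p = 0.148, and −0.69 without Celf1cKO replicate 2). In Celf1cKO replicate 1 Cdh1 was near the level of the Control libraries, whereas Foxe3 in the same library was lower by 1.47 on the log2 scale than in the Control library of the same number. In that library Pdgfra, at 5.88, and Gja1, another marker of the list, at 5.20 log2 CPM, also lay under every Control library. Mki67 and Ccnd1 lay inside the Control range there, and Ccnd2 lay above it. The log2 ratio of Foxe3 to Cdh1 was −1.98 ± 0.17 in Control and −2.65 ± 0.72 in Celf1cKO lenses, with overlap (exact permutation p = 0.2). The ratio of Foxe3 to Pdgfra also overlapped (exact permutation p = 0.4). The summed level of the 9 epithelium markers was 609 to 747 CPM in Control and 522 to 682 CPM in Celf1cKO libraries. Ccnd2 had the most reads of the 9 in every library, at 6258 to 8732 in Control and 11435 to 16509 in Celf1cKO. This sum therefore does not stand for the other markers. Of the 9, 6 had a negative log2 fold-change and 3 a positive one.

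Transcripts of other tissues on the lens also differed between the Celf1cKO libraries. The 6 markers of vessels and blood found by symbol summed to 72.1 to 87.7 CPM in Control and to 85.0, 21.2 and 42.2 CPM in Celf1cKO libraries. Limma called 0 of the 4 above 1 log2 CPM, as did voom. An unadjusted limma p under 0.05 was found for 1 of the 4, against 3571 of the 10529 genes. The 4 mesenchyme markers summed to 12.5 to 15.4 CPM against 10.8, 2.92 and 7.03 CPM. Celf1cKO replicate 2, with the lowest Foxe3, was also the library with the lowest vessel and mesenchyme sums. In Celf1cKO replicate 1 the vessel sum lay inside the Control range, while the mesenchyme sum and Foxe3 lay under every Control library. The part of these tissues in the Foxe3 value was not tested.

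**Figure D3:**
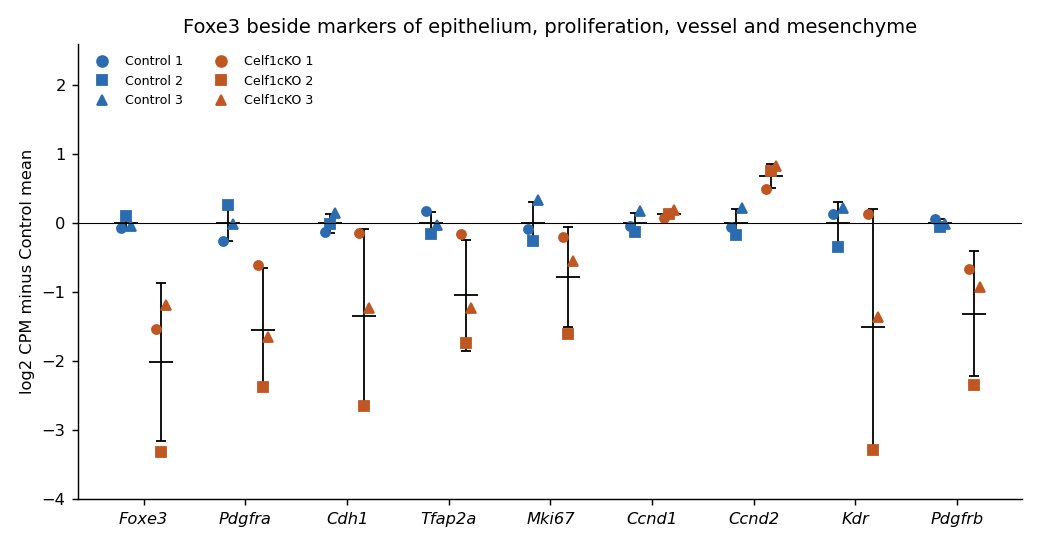
Log2 CPM minus the mean of the Control libraries (vertical axis) for Foxe3, epithelial genes (Pdgfra, Cdh1, Tfap2a), cell-cycle genes (Mki67, Ccnd1, Ccnd2), the vessel gene Kdr and the mesenchyme gene Pdgfrb, with 1 symbol per library and black lines for the mean ± SD of the 3 libraries of a group. Celf1cKO replicate 2 (orange squares) is the lowest library for Foxe3, Pdgfra, Cdh1, Tfap2a, Mki67, Kdr and Pdgfrb. In Celf1cKO replicate 1 (orange circles) Foxe3, Pdgfra and Pdgfrb are lower than in every Control library, while Cdh1 and Kdr are near the Control level.

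Among the factors of fiber cells, Gata3 (chromosome 2, 9857078 to 9890034, minus strand), a zinc finger factor needed for fiber cells to leave the cell cycle, was at 4.10, 3.92 and 3.62 log2 CPM in Control and at 3.88, 4.04 and 3.70 in Celf1cKO lenses. The Celf1cKO values again fell inside the Control range. Its log2 fold-change was under 0.01 in size with an interval from −0.38 to 0.37 (limma adjusted p = 0.991).

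Prox1 (chromosome 1, 190118035 to 190170714, minus strand), the homeodomain factor that drives fiber cell elongation and crystallin expression, had the most reads of the 8. It was at 9.50, 9.73 and 9.42 log2 CPM in Control and at 9.40, 9.66 and 9.53 in Celf1cKO lenses. The groups overlapped, and the log2 fold-change of −0.02 had an interval from −0.29 to 0.25 (limma adjusted p = 0.921). The study cites earlier work in which Celf1 controls the protein levels and the distribution of Prox1 and Pax6. RNA of whole lenses does not show either. Gata3 and Prox1 are also the factors besides Meis1 whose 3′ UTRs hold GU-rich matches, and the 3 are too few to set against the 9.59% of genes called.

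Hsf4 (chromosome 8, 105269801 to 105275845, plus strand), the heat shock factor of the lens, which activates crystallin genes and the nuclease gene Dnase2b, was at 7.82, 7.98 and 7.87 log2 CPM in Control and at 7.46, 7.54 and 7.44 in Celf1cKO lenses. The 2 groups were each tight and did not overlap, and Celf1cKO replicate 2 did not stand apart. The log2 fold-change was −0.41 ± 0.079 SE with an interval from −0.59 to −0.23 (limma adjusted p = 0.0210), a 1.33-fold lower level. It passed the adjusted p-value and missed the fold threshold, so Hsf4 was not called. With libraries scaled to their total reads it was −0.18 (adjusted p = 0.113), and leaving out any 1 library other than Celf1cKO replicate 1 gave adjusted p-values between 0.0508 and 0.116. The log2 ratio of Hsf4 to Prox1 within a library was −1.66 ± 0.10 in Control and −2.05 ± 0.096 in Celf1cKO lenses, without overlap (exact permutation p = 0.1).

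Divided by the summed length of their exons, the 8 factors covered a wide range of levels in Control lenses. Hsf4 was highest at 135 ± 7.36 CPM per kb, followed by Prox1 at 89.7 ± 10.1, Pitx3 at 54.8 ± 8.17 and Foxe3 at 35.7 ± 2.44 CPM per kb (SD, n = 3 each). Pax6 stood at 14.2 ± 0.829, Six3 at 11.0 ± 1.41, Gata3 at 3.72 ± 0.603 and Meis1 at 1.53 ± 0.205 CPM per kb. No neighbours in this order had overlapping Control values. In Celf1cKO lenses Foxe3 averaged 10.5 ± 6.27 CPM per kb, beside Six3 at 11.3 ± 2.28 and Pax6 at 11.2 ± 2.72, and the values of these 3 overlapped. Their order rested on Celf1cKO replicate 2, since without it Foxe3 averaged 14.0, Pax6 12.8 and Six3 10.1 CPM per kb. The exon lengths count every annotated exon, so genes with many isoforms, such as Pax6, are set lower by this scale, and Foxe3 has a coding model alone.

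**Figure D4:**
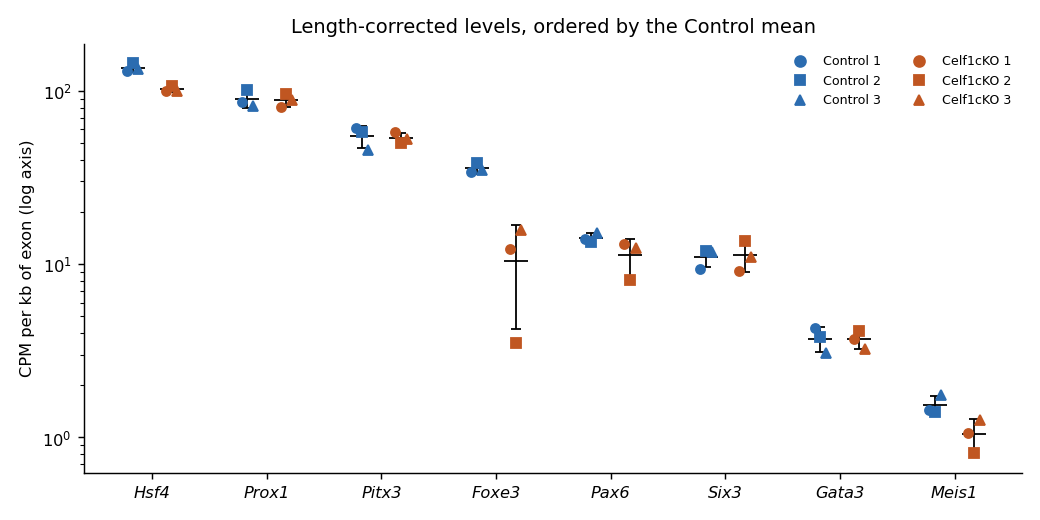
CPM per kb of annotated exon (vertical log axis) for the 8 factors ordered by their Control mean, with 1 symbol per library, Control in blue and Celf1cKO in orange, and black lines for the mean ± SD of 3 libraries. Foxe3 is the factor after Pitx3 in Control at 35.7 CPM per kb and stands at 10.5 CPM per kb in Celf1cKO lenses, where its values overlap those of Six3 (11.3 CPM per kb) and Pax6 (11.2 CPM per kb).

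Other transcription factors and cofactors of eye and lens induction, paralogs and partners of the 8, were taken from a list of 53, of which 47 were found and 34 were above 1 log2 CPM. Of these 34, 0 were called, and the median log2 fold-change was −0.04. An unadjusted limma p under 0.05 was found for 13 of the 34, against 3571 of the 10529 genes above 1 log2 CPM. Limma voom on the recovered reads called 1 of the 34, against 1033 of the 10529. With the replicate block 5 of the 34 were called, against 1255 of the 10529. Of the 5, 1, Meis2, was higher and 4, Tfap2a among them, were lower. Meis2, a paralog of Meis1, was at 5.38, 5.41 and 5.61 log2 CPM in Control and at 5.69, 6.42 and 6.08 in Celf1cKO lenses (log2 fold-change 0.60, limma adjusted p = 0.0754, blocked 0.0475), opposite in sign to Meis1. Tfap2a, a factor of surface ectoderm and lens epithelium, was at 4.92, 4.59 and 4.72 against 4.59, 3.01 and 3.51 (log2 fold-change −1.04, limma adjusted p = 0.104, blocked 0.0396).

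Genes that earlier work places under the 8 factors in the lens were taken from a list of 30, of which 29 were found and all 29 were above 1 log2 CPM. Of these, 12 were called, all 12 lower in Celf1cKO lenses, against 3.38% of genes called lower, 21 lay lower in every Celf1cKO library, against 16.9% of genes, and the median log2 fold-change was −0.66 against 0.0060 for all genes. Dnase2b, the nuclease that degrades fiber cell nuclei and a known target of Hsf4, was reduced most in log2 fold-change (−2.81 ± 0.45 SE, limma adjusted p = 0.0141). The study, citing earlier work, also names the Dnase2b transcript as one that Celf1 binds directly, and the part of either protein was not tested. Dnase2b was at 7.49, 7.57 and 7.83 log2 CPM in Control and at 5.99, 4.09 and 4.39 in Celf1cKO lenses. Crygf, a crystallin of fiber cells, was reduced by a log2 fold-change of −1.91 and Crygb by −1.31, but the γ-crystallin genes are close copies whose uniquely mapped reads may be split unevenly. Bfsp1, a protein of the beaded filaments of fiber cells, was reduced by −1.47. Fgfr2, a receptor for the growth factors that induce fiber cells, was at 8.54, 8.63 and 8.50 against 7.75, 7.18 and 7.16 log2 CPM (log2 fold-change −1.19 ± 0.16 SE, limma adjusted p = 0.0105).

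The same list held genes under these factors that were not called. Cdkn1b and Cdkn1c are cell-cycle inhibitors that fiber cells need to stop dividing and that depend on Prox1 and Gata3. Their log2 fold-changes were −0.20 and 0.28 (limma adjusted p = 0.408 and 0.153). For the Cdkn1b protein, p27Kip1, the study cites earlier work on Celf1 control of its translation, which RNA levels do not show. Maf, a fiber cell factor downstream of Pax6, was at 9.83, 10.2 and 9.94 log2 CPM in Control and at 9.25, 9.59 and 9.68 in Celf1cKO lenses (log2 fold-change −0.49, limma adjusted p = 0.0754). Mab21l1, which depends on Pax6 in the early lens, was at 4.47, 5.67 and 5.24 against 4.23, 4.04 and 4.22 (log2 fold-change −0.96, limma adjusted p = 0.0642). Many of the 29 are abundant fiber cell genes, several are named in the study, and their shared direction is not independent of how they were listed. Without Control replicate 2, or without Celf1cKO replicate 3, 0 of the 29 were called. Of 11 fiber markers found, 4 of which are also on this list, 6 were called, all lower, against the same 3.38%. Besides Dnase2b and Bfsp1 these were Lgsn (log2 fold-change −4.37), Birc7 (−1.15), Gja3 (−1.13) and Tdrd7 (−0.68).

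**Figure D5:**
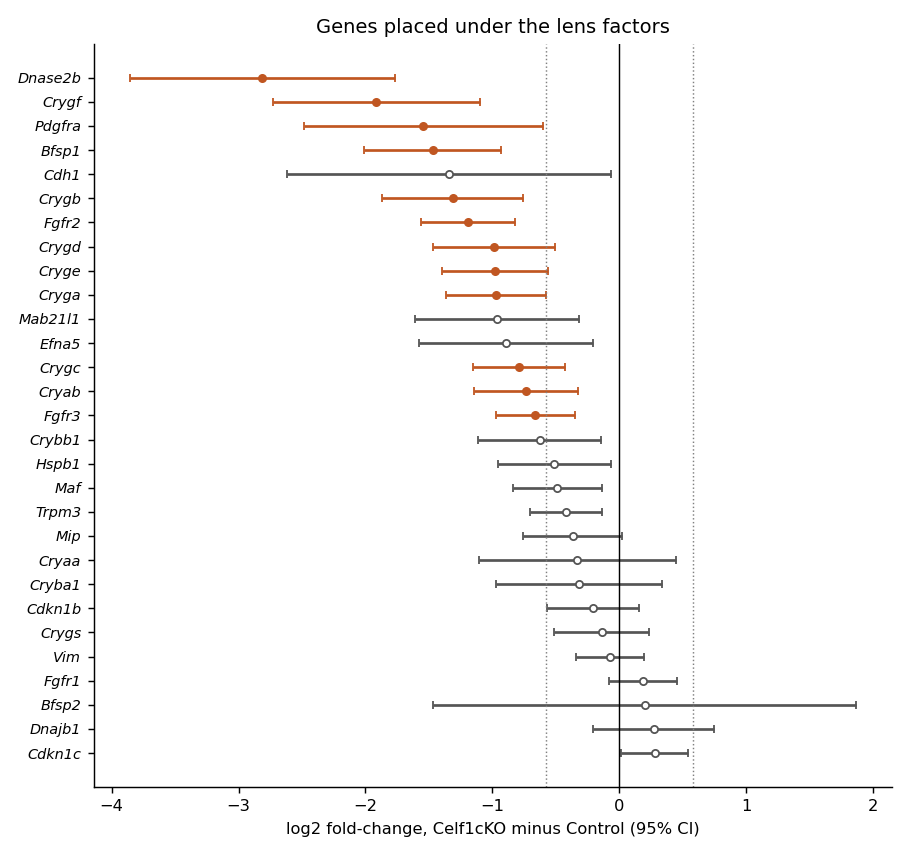
Log2 fold-change of Celf1cKO minus Control (horizontal axis) with its 95% confidence interval from limma for the 29 genes that earlier work places under the 8 factors, with filled orange symbols for the 12 called genes and dotted lines at the threshold of 0.58 in either direction. All 12 called genes lie on the lower side, from Dnase2b at −2.81 to Fgfr3 at −0.66, and 4 of the 29 have a fold-change above zero.

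Several of the 8 factors are also expressed outside the lens, in retina, iris and ciliary body, so markers of these tissues were read in the same libraries. Of 14 retina markers 9 were found, with Crx, Nrl and Neurod1 among those not found, and 2 were above 1 log2 CPM. The 9 retina markers summed to 12.9, 8.83 and 31.0 CPM in Control and to 8.36, 5.52 and 17.6 CPM in Celf1cKO libraries, which is below the level of Pax6 or Six3 alone. The sum was highest in replicate 3 and lowest in replicate 2 of both groups. The 9 markers of pigment epithelium and ciliary body summed to 32.1 to 56.2 CPM against 24.1 to 51.1 CPM. Elavl4 was called lower in the first list and Mitf in the second. Of 10 surface epithelium markers 4 were found, with Krt5, Krt14, Krt12 and Trp63 not found by symbol. Limma and voom called 0 of the 2 above 1 log2 CPM. An unadjusted limma p under 0.05 was found for 1 of the 2, against 3571 of the 10529 genes. That gene was Perp, at 4.52, 4.42 and 4.53 log2 CPM in Control and at 4.91, 5.06 and 4.87 in Celf1cKO lenses (limma adjusted p = 0.0300), which missed the fold threshold. The 4 surface epithelium markers summed to 28.8 to 30.2 CPM in Control and to 34.1 to 38.1 CPM in Celf1cKO libraries, without overlap. Perp had the most reads of the 4 in every library and was the only one with a higher level. Krt1, Krt10 and Sfn had log2 fold-changes of −0.94, −0.20 and −0.60 and were not called. The part of these tissues in the values of the 8 factors was not tested. With both replicate 3 libraries left out, an alternative chosen after seeing these markers, the log2 fold-changes of Foxe3 and Hsf4 were −2.45 and −0.40, and 0 of the 8 were called by limma, at a setting where 1 gene of the whole table was.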

How the data were processed

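Whole lenses of P0 mice were analysed by RNA-sequencing, with 3 libraries per group. The authors aligned strand-specific paired-end reads to GRCm38.p6 with STAR (2.7.8a), used only reads with a unique position, assigned them to genes with featureCounts (2.0.0) and removed genes of very low CPM. After edgeR normalization the authors deposited log2 CPM values, with a small prior count, for 13931 genes. The deposited table also holds the authors' own fold-changes and mean log2 CPM, the F score of their test, and its p-values and FDR, none of which was used. Samples were grouped, and numbered as replicates, by their titles. Nothing states that the libraries came from separate litters, so p-values measure the spread between these pools.

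The steps between low values gave the number of reads behind each value, and 100% came out whole within 0.01 reads. Group differences were tested with limma (3.58.1, R 4.3.3) on the deposited values of all genes, two-sided, with the prior variance following expression, with Benjamini-Hochberg adjustment across the 13931 genes. The thresholds were those of the study's methods, with the mean taken over the 6 libraries. A fold-change is on the scale of the deposited values and understates changes of genes with few reads. Deviations from the group means correlated at 0.33, 0.42 and 0.33 between libraries of the same number, in these same data. The titles share the numbers between groups but do not state that libraries were paired. The main fit therefore has no block. A fit with the replicate block, which rests on an unstated pairing, is given beside it where it changes a call. Single ratios were compared by exact permutation.

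Gene positions, exon lengths and 3′ UTRs came from GENCODE M21, which held 13928 of the 13931 identifiers, and promoters from RefSeq. The test was checked on simulated counts. Other settings were a fit blocked by replicate number, one without the variance trend, robust empirical Bayes, log2(CPM + 1), adjustment over expressed genes, other scalings, limma voom on recovered reads, other fold thresholds and each library left out. The 10 factors and all gene lists were chosen with earlier results of these data known. Named were every factor found, Celf1, the called genes of each list up to 6 per direction, noncoding transcripts overlapping a factor, and absent or leading markers. The exceptions, chosen after their values were seen, were Sox3, Meis2, Tfap2a, Cdh1, Gja1, Mki67, Ccnd1, Kdr, Pdgfrb, Maf, Mab21l1, Cdkn1b, Cdkn1c, Fgfr3, Perp, Krt1, Krt10, Sfn, Efna5, Crygd and Cryab. Plots used matplotlib 3.10.9 (Python 3.11.15).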

Additional observations from a re-analysis of the deposited data

How the results depend on the processing

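Foxe3 stayed called in every alternative that kept all 6 libraries except the fit with no variance trend (adjusted p = 0.0894), where 0 of the 8 factors were called, whereas 2 were called with no fold threshold, the second being Hsf4. With both replicate 3 libraries left out, a setting chosen after seeing the data, 0 factors, 0 of the 29 genes under them, 0 lens cell markers and 0 markers of neighbouring tissue were called, and 1 gene of all was. In that setting the adjusted p of Foxe3 was 0.213. With single libraries left out, calls ran from 0 to 1 among the factors, 0 to 7 among their partners, 0 to 14 among the genes under them, 0 to 9 among lens cell markers (8 with all libraries), 0 to 7 among markers of neighbouring tissue (2 with all libraries) and 1 to 1879 among all genes (1010 with all libraries). A fit on 5 libraries has fewer samples, so a lost call there says little on the size of an effect.

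Among the genes named, leaving out Celf1cKO replicate 2 moved Kdr from −1.51 to −0.61 and Gja1 from −0.95 to −0.19. Leaving out Celf1cKO replicate 1 moved Kdr to −2.33 and Cdh1 from −1.34 to −1.95, and leaving out Celf1cKO replicate 3 moved Gja1 to −1.61. The replicate block called 5 partner genes in place of 0, called Sox2ot, Efna5 and Pdgfrb, lost Crygd and Cryab, and changed no other call described here. Among partners, 3 were called with adjustment over expressed genes or with median centring, and 1 with robust empirical Bayes, log2(CPM + 1), quantile normalization, total-count scaling or voom. Quantile normalization left 5 and a fold threshold of 1 left 6 of the 12 calls among the genes under the factors. With no variance trend 3 lens cell markers and 0 markers of neighbouring tissue were called, and with the fold threshold of 1, 1 of the latter. All-gene calls were 412 with no variance trend, 1846 with total-count scaling, 1530 with no fold threshold and 367 with the threshold of 1.

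Total-count scaling moved the median of all genes by 0.23 on the log2 scale and the share of calls that were higher from 64.8% to 89.4%. It turned Pitx3 to 0.20, Gata3 to 0.22 and Prox1 to 0.21, which are near that shift. The median over the 8 factors was 0.028 with it, −0.27 with quantile normalization and −0.27 without both replicate 3 libraries, and ran from −0.24 to −0.14 with single libraries left out. Six3 turned to −0.0098 with median centring, −0.067 with quantile normalization and −0.0022 with totals that leave out crystallins, and Gata3 to 0.00083 with quantile normalization. With single libraries left out, Six3 ran from −0.13 to 0.16, Pitx3 from −0.16 to 0.056, Gata3 from −0.13 to 0.11 and Prox1 from −0.086 to 0.068. Celf1 was at −1.60 with no variance trend (adjusted p = 0.0693), at −1.65 without both replicate 3 libraries and between −1.99 and −1.36 with single libraries left out, where it passed the threshold without Celf1cKO replicate 1 alone. The cause of these moves was not tested.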
